A study of Homo sapiens with 9 samples.

Results

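The comparison described here is between H1975 cells that carried GRP78 unable to enter the nucleus and H1975 cells that carried no added GRP78. H1975 is a human lung adenocarcinoma cell line. In every group, endogenous GRP78 was first depleted for 24 h with an siRNA against the 3′UTR of its transcript, and a plasmid was then transfected for 48 h. The members were the 6 libraries titled NLS Mut or Vector, 3 of each, out of 9 libraries in the series. NLS Mut cells received F-78(NLS Mut), a FLAG-tagged GRP78 in which 3 lysines of the nuclear localization signal (NLS) are alanine, and Vector cells received pcDNA3, the empty plasmid. The 3 remaining libraries, titled WT, came from cells given F-78(WT), the tagged wild-type protein, and served here to estimate the spread and for direct tests between both forms. Vector is therefore a state of depleted GRP78, and cells without siRNA were not analysed here. Expression came from transient transfection of 1 line, and nothing in the labels says whether replicates were separate cultures, so p-values measure the spread between these libraries, which may be technical.

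GRP78, also called BiP, is the HSP70-type chaperone of the endoplasmic reticulum (ER). It binds nascent and misfolded proteins there and keeps the stress sensors PERK, IRE1 and ATF6 inactive until it is titrated away, upon which these sensors start the unfolded protein response (UPR) and raise the transcription of ER chaperones, including GRP78 itself. GRP78 is also found at the cell surface, in the cytosol and in the nucleus of stressed and cancer cells, and the study asked what its nuclear pool does to transcription. In the present comparison the added protein lacks nuclear import, so the question is which genes change when GRP78 returns to cells other than by that route.

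The deposited values are unnormalized read counts for each gene, and their totals ranged from 21283473 to 27476298 reads in the Vector libraries and from 17671055 to 25821825 in the NLS Mut libraries. All 9 libraries were fitted together with edgeR's quasi-likelihood test on 18653 genes with enough counts, and adjusted p-values below 0.05 were taken as calls. Levels are given as CPM (a gene's reads relative to all counted reads of its library, after TMM scaling) and differences as log2 fold changes of NLS Mut over Vector. Of the markers of lung adenocarcinoma epithelium, EPCAM was at 184 to 220 CPM and KRT8 at 1448 to 1745 CPM over the 6 libraries, whereas the surfactant gene SFTPB did not exceed 1.06 CPM. Only 6 of 13 markers of leukocytes, endothelium, fibroblasts, erythroid cells and hepatocytes passed the count filter, each below 10 CPM, and none of them was called.

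The Vector libraries were not alike in their dependence on GC content. The slope of log2(library / mean library), given for each 10 percentage points of GC, was -0.05 for Vector replicate 1 but 0.11 and 0.12 for Vector replicates 2 and 3. It was -0.02, -0.05 and -0.03 for NLS Mut replicates 1, 2 and 3, so Vector replicate 1 resembled the NLS Mut libraries in this respect and the other Vector replicates did not. The median log2 fold change of NLS Mut over Vector ran from 0.09 in the lowest of 5 equal bins of genes by GC content through 0.00 in the middle bin to -0.12 in the highest bin. After a loess correction of each library for GC content, which removes such a trend by construction, the 5 medians lay between -0.0082 and -0.0002. GC-corrected counts of calls are therefore given beside the gene groups.

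**Figure D1:**
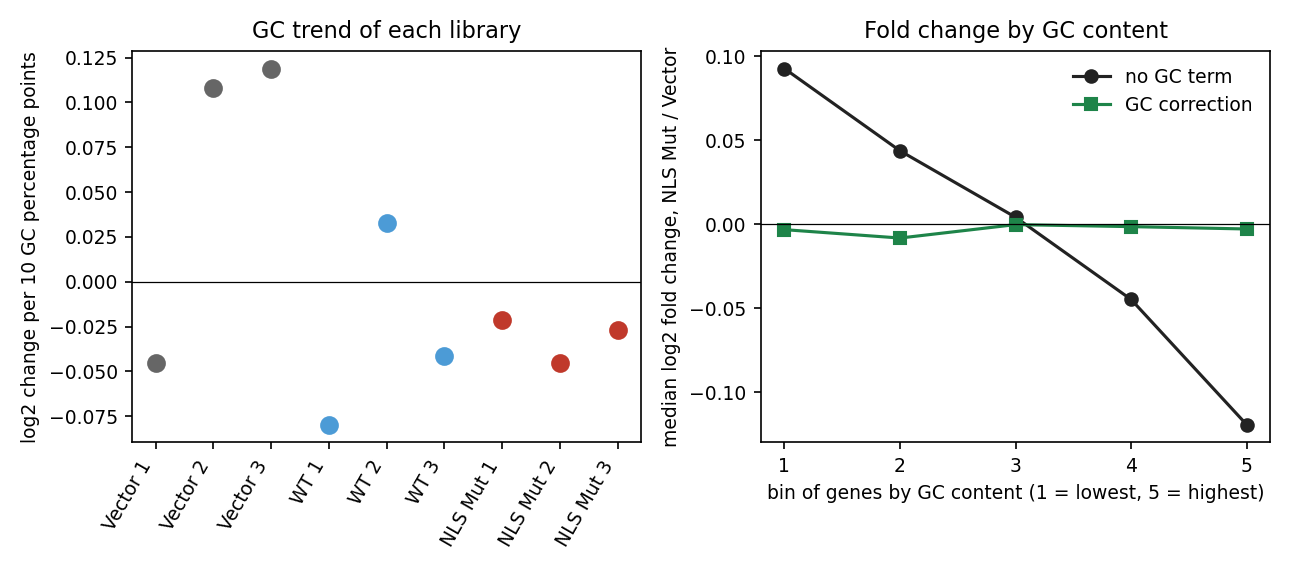
Left, the change of each library's log2 ratio to the mean library per 10 percentage points of gene GC content, 1 point per library (grey, Vector; blue, WT; red, NLS Mut). Right, the median log2 fold change of NLS Mut over Vector in each of 5 bins of genes by GC content, without a GC term (circles) and after the GC correction (squares). Vector replicates 2 and 3, at 0.11 and 0.12, stand above the other 7 libraries, and the uncorrected medians fall from 0.09 to -0.12.

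HSPA5, the gene of GRP78, was measured first as a check of which libraries carried a GRP78 plasmid. The Vector libraries held 359, 383 and 391 CPM and the NLS Mut libraries 4962, 5156 and 4765 CPM. The groups lay far apart, with a log2 fold change of 3.71 (SE 0.06, adjusted p = 7.1e-28, edgeR), or 13.1-fold. With the wild-type plasmid the mean was 5664 ± 572 CPM (SD, n = 3). HSPA5 was not called between NLS Mut and WT, so it cannot check these 2 labels against each other. HSPA5 (ENSG00000044574.9) lies on chromosome 9 from 125234853 to 125241330 on the minus strand in GRCh38, and reads from the plasmid and from the endogenous gene were counted together. Its processed pseudogene HSPA5P1, at 0.04 to 0.23 CPM in Vector and 2.04 to 2.73 CPM in NLS Mut, and ENSG00000250746, at 0 to 0.04 and 1.48 to 1.63 CPM, were called together with it. Both share sequence with HSPA5, so their reads cannot be assigned to them with confidence.

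Beside HSPA5 the changes were small. Of the 18653 genes, 55 were called higher in NLS Mut, which is 0.295% of those tested, and 93 were called lower, which is 0.499%. A further measure is overlap, and in 3377 genes (18.1%) the 3 NLS Mut libraries all lay on 1 side of the 3 Vector libraries, as they did in 54 of the 55 higher and all 93 lower genes. The median log2 fold change was 0.31 among the higher genes and -0.40 among the lower genes, and only 4 genes in each direction passed 1 on the log2 scale. The higher ones were HSPA5, HSPA5P1, ENSG00000250746 and RN7SL1, whose groups overlapped. The lower ones were LINC02897, ENSG00000275964, PDLIM2 and NR4A1. The higher genes had a median GC content of 43.5% and the lower genes of 59.9%, against 49.3% for all tested genes. In the bin with the highest GC content, 2 genes were called higher and 57 lower, and in the lowest bin 19 were called higher and 0 lower.

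With the GC correction the calls became 104 higher (0.558%) and 96 lower (0.515%), so that the split between directions moved from 37.2% to 52.0% higher. Of the original calls, 40 higher and 58 lower genes were called in the same direction after the correction. A split of 39 higher and 133 lower resulted from library size alone in place of TMM. Without Vector replicate 1 the counts reached 473 higher and 529 lower, and they were 18 and 32 without Vector replicate 2 and 11 and 31 without Vector replicate 3. In all 9 fits that each left out 1 library, and with the GC correction as well, 9 higher and 18 lower genes were called. The higher genes among them included HSPA5 and its pseudogenes HSPA5P1 and ENSG00000250746, HSPA8, HSP90AA1, MCM4, ATAD2 and CYP1B1. The lower genes among them included PDIA4, HSP90B1, HYOU1, LAMA5, LAMB2, COL7A1, C3, KLF4, GSN, IGFBP6, SEMA3B, AQP3, CCDC144NL and SLC22A31.

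**Figure D2:**
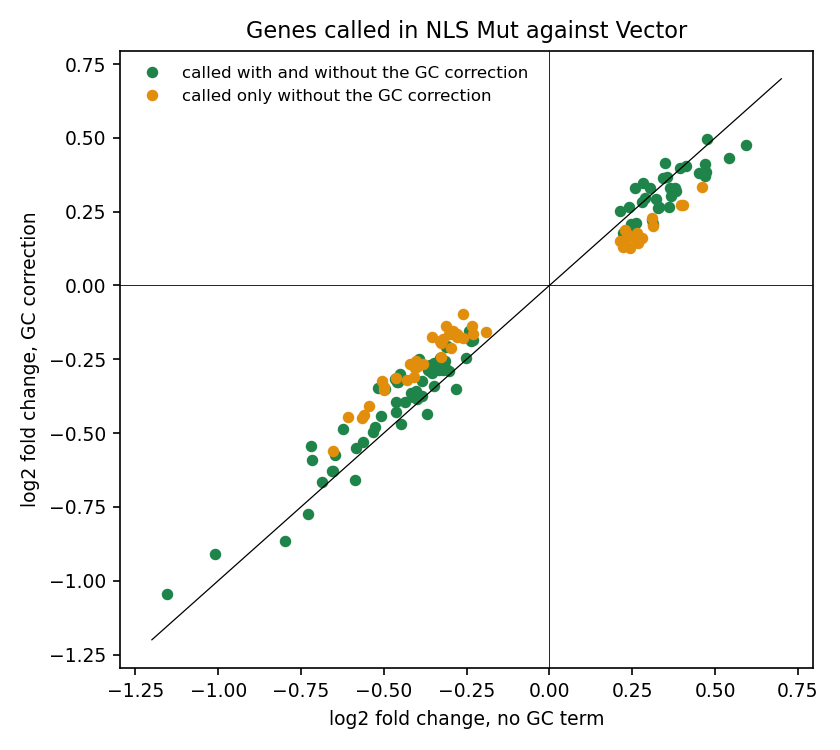
Log2 fold change of NLS Mut over Vector for the called genes, without a GC term (x axis) and after the GC correction (y axis), 1 point per gene, with the line of equality. Green points (92) were called in both fits and orange points (50) only without the correction, and all lie on the same side of 0 on both axes. The plot leaves out 6 genes beyond its range.

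Among ER chaperones and folding enzymes all calls were decreases. Of 28 tested members, 6 fell and 0 rose, against 0.499% of all tested genes called lower and 0.295% called higher. The log2 fold change was negative in 24, and the median was -0.15, against 0.00 for all tested genes. With the GC correction 9 fell, with a median of -0.15. Without the correction, 3 fell when Vector replicate 2 or 3 or NLS Mut replicate 1 or 3 was left out and 13 fell without Vector replicate 1. With the correction, 12 fell without Vector replicate 1 and 5 without Vector replicate 2 or 3. In bulk RNA, fewer cells of a type and less RNA per cell cannot be told apart, for these or any other genes.

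PDIA4, a disulfide isomerase of the ER, was at 2449, 2809 and 2838 CPM in Vector and at 1992, 2066 and 2033 CPM in NLS Mut. It fell by 0.41 on the log2 scale (SE 0.05, adjusted p = 9.1e-06, edgeR). HSP90B1, which encodes GRP94, the HSP90 paralog of the ER, was at 2461, 2419 and 2430 CPM in Vector and at 1968, 2070 and 1968 CPM in NLS Mut. All 3 NLS Mut libraries of both genes lay well below every Vector library. HSP90B1 fell by 0.28 (SE 0.04, adjusted p = 0.00027, edgeR), and since its GC content is 42.4%, the correction made the difference larger, at -0.35.

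HYOU1, a large HSP70 relative that acts as a nucleotide exchange factor for GRP78, fell by 0.33, from 918 ± 87.4 to 729 ± 20.8 CPM (SD, n = 3 each). CRELD2 and MANF, small secreted or ER-resident proteins induced by ER stress, fell by 0.35 and 0.30. The lectin chaperone CALR was at 1861, 2183 and 2174 CPM in Vector and at 1746, 1821 and 1727 CPM in NLS Mut, with a log2 fold change of -0.23 (adjusted p = 0.018, edgeR). Vector replicate 1 was the lowest of the Vector libraries for CALR, and the groups did not overlap. The disulfide isomerases PDIA3 (-0.17) and PDIA6 (-0.20) and the oxidase ERO1B (-0.65) passed the threshold after the GC correction, at -0.21, -0.23 and -0.77. The membrane lectin CANX, at -0.02, and the J-domain co-chaperones DNAJB9, at -0.04, and DNAJC3, at 0.02, were not called in either fit.

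The ER stress response element (ERSE), CCAAT and CCACG separated by any 9 bases, is bound by NF-Y and ATF6 and was searched on both strands in RefSeq promoters of GRCh38.p14, from 250 bases before to 50 after the gene start. It occurred in 22 of 27305 promoters (0.0806%), in 14 of the 12151 matched promoters of tested genes (0.115%) and in 5 of the 25 ER chaperone promoters that could be matched (20%). No such site was found for PDIA4, HYOU1 or MANF, which were also called. Among all called genes, it occurred in 3 of 64 matched promoters of those called lower (4.69%) and 1 of 42 of those called higher (2.38%). The sites of the 3 called members of the ER chaperone list that held it are shown. Both parts of the element and its spacer are in capitals, on the strand that carries CCAAT first, with coordinates of the capitals.
HSP90B1, chr12:103930216-103930234: tgaCCAATCGGAAGGAGCCACGctt
HSP90B1, chr12:103930321-103930339: ccaCCAATCGCGCCGCACCACGcac
CALR, chr19:12938384-12938402: cgaCCAATGATGGTCGACCACGcgt
CRELD2, chr22:49918554-49918572: ggcCCAATCCGAGTTCGCCACGaga
The promoters of CANX and ERO1B, which were not called in the uncorrected fit, held the same element. A match describes these letters and not a bound site.

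The sensors and regulators of the UPR had no calls. None of 24 tested members was called in either fit, and the median was -0.05, or -0.02 after the GC correction. Without Vector replicate 1, and without the correction, 2 rose and 3 fell. XBP1, the transcription factor spliced by IRE1, was at 391.8, 398 and 399 CPM in Vector and at 384, 377 and 378 CPM in NLS Mut, a log2 fold change of -0.06 (SE 0.05, adjusted p = 0.68, edgeR). ATF4, the factor translated after PERK activation, was at -0.07, and its proapoptotic target DDIT3 (CHOP) at -0.26 (adjusted p = 0.19, edgeR), with Vector libraries from 49.1 to 55.3 CPM and NLS Mut libraries from 39.8 to 44.2 CPM. Of 36 genes of the ATF4 program and amino acid supply, 0 were called in either fit and the median was -0.01, or 0.01 after the correction. Of 28 genes of ER-associated degradation and ER translocation, 0 were called and the median was 0.00, and HERPUD1 (-0.20) and SEL1L fell after the GC correction. The gene counts do not measure splicing of XBP1, translation of ATF4 or the activity of the sensors. By pathway analysis, the study reported categories of the cellular stress response as lower with either GRP78 form than with empty vector.

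Among chaperones of the cytosol the calls went in the other direction. The cytosolic heat shock list also holds HSF1, HSF2 and mitochondrial HSPD1 and HSPE1. Of its 27 tested members, 4 rose and 0 fell, against 0.295% of all tested genes called higher. The median was 0.14, and with the GC correction 4 rose and the median was 0.13. The number of increases was 2 without Vector replicate 3 or any 1 of the NLS Mut replicates. It was 7 without Vector replicate 1, where 1 member fell. HSP90AA1, the inducible cytosolic HSP90, was at 1454, 1468 and 1413 CPM in Vector and at 1806, 1972 and 1858 CPM in NLS Mut. Its log2 fold change was 0.38 (SE 0.04, adjusted p = 9.1e-06, edgeR). The constitutive cytosolic HSP70 gene, HSPA8, was at 1073, 1158 and 1097 CPM in Vector and at 1330, 1491 and 1461 CPM in NLS Mut, a log2 fold change of 0.36 (SE 0.05, adjusted p = 6.4e-05, edgeR). Both genes were clear of overlap. The HSP90 cochaperones FKBP4 and PTGES3 (p23) rose by 0.30 and 0.25, while the strongly stress-inducible HSPA6 (-0.40) and DNAJB1 (0.03) were not called.

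All 8 subunits of the TRiC/CCT chaperonin, which folds actin and tubulin, had positive log2 fold changes from 0.11 to 0.26, with no overlap of the groups for any subunit. Groups that did not overlap, in either direction, were found for 18.1% of all tested genes. The subunits TCP1 (0.26) and CCT5 (0.25) were called, against 0.295% of all tested genes called higher. With the GC correction 2 were called and the median was 0.14 in place of 0.20. Under that correction, no subunit was called without Vector replicate 1 and 1 was called without Vector replicate 2 or 3. Without the correction, none was called without Vector replicate 3 or any 1 of the NLS Mut replicates, and 6 were called without Vector replicate 1.

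Heat shock elements (3 alternating units of GAA and TTC, each separated by any 2 bases, both strands) occurred in 0.487% of all promoters and in 5 of 24 matched promoters of the cytosolic heat shock list (20.8%), against 0.354% of the matched promoters of tested genes. Among matched promoters of genes called higher, 1 of 42 held it (2.38%). The promoters of HSPA6, DNAJB6, DNAJA1 and CHORDC1, which were not called in the uncorrected fit, held it too. None was found for HSP90AA1, FKBP4 or PTGES3, which were called. HSPA8 was the called member with such an element, which is why its sites are printed. They are given on the gene strand with the 3 units and their spacers in capitals.
HSPA8, chr11:123062354-123062366: gcttGAAAGTTCCAGAAcgct
HSPA8, chr11:123062179-123062191: ccccTTCTGGAAGGTTCtaag

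Among genes of DNA replication the calls were increases. Of 39 tested members, 7 rose and 0 fell, against 0.295% of all tested genes called higher and 0.499% called lower. The log2 fold change was positive in 37, with a median of 0.25. With the GC correction 10 rose, with a median of 0.24. Without 1 library the number of increases ranged from 1, without NLS Mut replicate 2, to 10, without Vector replicate 1, and it was 2 without Vector replicate 3, 3 without NLS Mut replicate 1 and 4 without NLS Mut replicate 3. With the GC correction it was 7 without Vector replicate 1.

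MCM2 to MCM7 form the helicase that unwinds origins. MCM4 was at 151, 176 and 162 CPM in Vector and at 203, 223 and 224 CPM in NLS Mut, a log2 fold change of 0.41 (SE 0.06, adjusted p = 0.00048, edgeR). MCM2 was at 87.9, 92.1 and 87.5 CPM in Vector and at 110.5, 118 and 112 CPM in NLS Mut, or 27.3% higher. MCM6 rose by 0.37 and MCM3 by 0.34, with no overlap in either. MCM5 (0.24) and MCM7 (0.22) were called only after the GC correction, at 0.30 and 0.28, so that all 6 subunits were then called. CDC45 and GINS1, which join the helicase to make it active, rose by 0.48 and 0.38. UHRF1, which guides maintenance methylation to newly made DNA, rose by 0.28, and the licensing factor CDT1 passed the threshold after the GC correction. PCNA, the sliding clamp, was at 0.26 with an adjusted p of 0.053 (edgeR), and the initiation factors CDC6 (0.13) and E2F1 (0.03) were not called.

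Among 30 mitotic genes, ANLN, a scaffold of the cleavage furrow, and the spindle motor KIF11 rose by 0.31 each, 0 fell and the median was 0.19. After the GC correction ANLN was called and KIF11 was not, and the median was 0.13. No member was called without Vector replicate 3 or NLS Mut replicate 2 or 3, and 9 rose without Vector replicate 1, or 0 when the GC correction was used as well. CDK1 (0.19), CCNB1 (0.20) and MKI67 (0.19) were not called. PRC1, the member with the highest value (1.52), did not exceed 1.19 CPM in any of the 6 libraries and was not called. Among the largest increases outside the lists were DTL (0.45), which targets CDT1 for destruction in S phase, MMS22L (0.46), which protects stalled replication forks, CDCA7 (0.47), ATAD2 (0.47), a chromatin-associated ATPase, and FAM111B (0.59). All but MMS22L were called after the GC correction. In the uncorrected fit, DTL and FAM111B were not called without Vector replicate 2 or 3 or NLS Mut replicate 2 or 3. CDCA7 and MMS22L were not called without Vector replicate 2 or 3 or NLS Mut replicate 1 or 2. ATAD2 was called whichever library was left out.

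Sites of the E2F type, spelled TTTCCCGC, TTTGGCGC, TTTCGCGC or TTTGCCGC and searched on both strands, occurred in 3.33% of all promoters and in 5.12% of the 12151 matched promoters of tested genes. They occurred in 18 of 34 matched promoters of the DNA replication list (52.9%), in 10 of 42 matched promoters of genes called higher (23.8%) and in 2 of 64 of those called lower (3.12%). Promoters of list members not called in the uncorrected fit held such sites too, among them CDC6, E2F1, MCM7 and PCNA. None was found for MCM4 or CDC45, which were called. The sites of MCM2, MCM3, MCM6, UHRF1 and GINS1, all called higher, are shown with the 8 letters in capitals. Positions on opposite strands can overlap, so 1 site is given for each gene, in the direction in which it was read.
MCM2, chr3:127598413-127598420: accactTTTCGCGCgaaacc
MCM3, chr6:52284739-52284746: ggaagtTTTCGCGCcggggt
MCM6, chr2:135876588-135876595: tttgcaTTTGGCGCgaaatc
UHRF1, chr19:4909487-4909494: gattttTTTCCCGCgaaaac
GINS1, chr20:25407678-25407685: ccgcgcTTTGGCGCcgaaca
The E-box CANNTG, the element bound by the factors that ID proteins sequester, was in 68.9% of all promoters and 61.3% of those of tested genes, in 54.8% of the matched promoters of genes called higher and in 57.8% of those called lower.

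**Figure D3:**
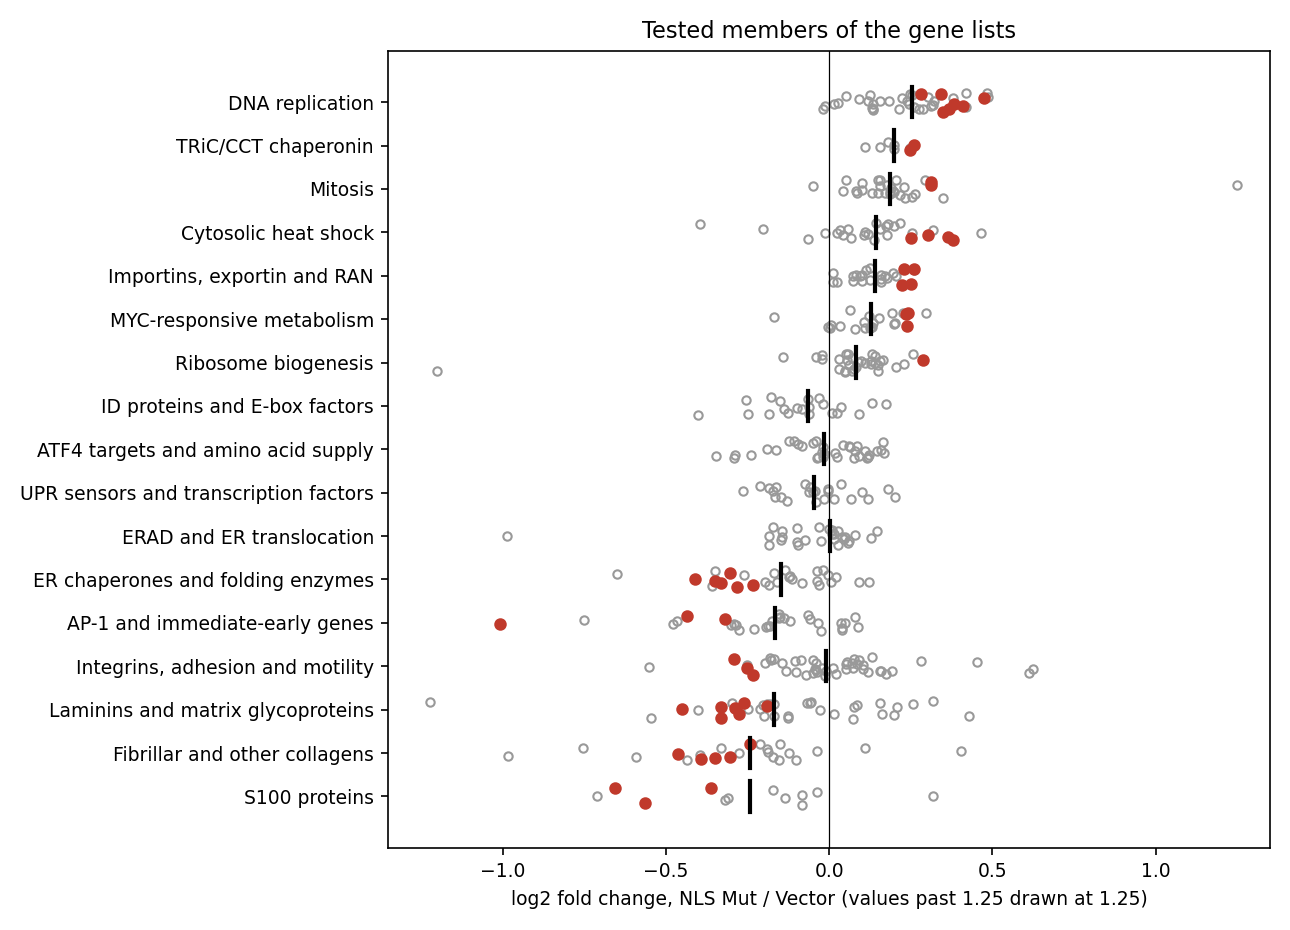
Log2 fold change of NLS Mut over Vector for the tested members of 17 gene lists, 1 point per gene, without a GC term. Filled red points are called genes, open points are not, and the black bar is the median of the list, which runs from 0.25 for DNA replication to -0.24 for collagens and S100 proteins.

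In the list of nuclear transport receptors and RAN, all 24 tested members had a positive log2 fold change. The median was 0.14, or 0.11 after the GC correction. The median GC content of this list was 45.2%, against 49.3% for all tested genes. Of its members 4 rose, against 0.295% of all tested genes called higher. These were CSE1L (0.26), which returns importin alpha to the cytoplasm, IPO5 (0.25), KPNA2 (0.23), an importin alpha, and TNPO1 (0.22). Only IPO5 was called after the GC correction. With that correction, 0 were called without Vector replicate 1 or 3 and 1 without Vector replicate 2. In the uncorrected fit, no member was called without Vector replicate 2 or 3 or without any 1 of the NLS Mut replicates. KPNB1, importin beta, at 0.13, and RAN, at 0.16, were not called. Of 23 genes of MYC-responsive metabolism, the transferrin receptor TFRC (0.24), the purine enzyme PAICS (0.24) and the polyamine enzyme AMD1 (0.24) rose and 0 fell, and of these PAICS was called after the GC correction. No gene of that list was called with library size alone, without Vector replicate 2 or 3, or without any 1 of the NLS Mut replicates. Ribosome biogenesis had 1 increase among 33 genes, RRP1B (0.29), and a median of 0.08. After the GC correction 3 rose, with a median of 0.11, DESeq2 called 6, and without Vector replicate 2 or 3 or any 1 of the NLS Mut replicates 0 were called. In glycolysis and hypoxia 0 of 32 were called, with a median of 0.12, and 5 rose after the GC correction.

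Among extracellular matrix genes the calls were decreases. Of 23 tested collagens, 5 fell and 0 rose, against 0.499% of all tested genes called lower. The log2 fold change was negative in 21, with a median of -0.24. The median GC content of these collagens was 59.5%, and after the correction 5 fell, with a median of -0.16. Without the correction, 1 fell without NLS Mut replicate 2 and 3 fell without Vector replicate 2 or 3 or NLS Mut replicate 1 or 3. COL17A1, a transmembrane collagen of hemidesmosomes, fell by 0.46, from 75.7 ± 8.79 to 54.9 ± 3.51 CPM (SD, n = 3 each). COL7A1, the collagen of anchoring fibrils, fell by 0.39. COL1A2, a chain of type I collagen, was at 177, 162 and 176 CPM in Vector and at 142, 126 and 136 CPM in NLS Mut, and its log2 fold change was -0.35 (SE 0.06, adjusted p = 0.0033, edgeR). It was -0.34 after the GC correction. COL5A1 (-0.24) stayed called after that correction and COL6A1 (-0.30 before, -0.16 after) did not. The partner chain COL1A1, at -0.19, was not called.

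Of 36 laminins, basement membrane proteins and matrix glycoproteins, 7 fell and 0 rose, against 0.499% of all tested genes called lower. Their median was -0.17. After the GC correction 4 fell, with a median of -0.09, and without Vector replicate 1 as well 2 fell. Without the correction the number ranged from 2, without NLS Mut replicate 2, to 10, without Vector replicate 1. LAMA5, the alpha chain of laminin-511, was at 249.7, 270.4 and 287 CPM in Vector and at 201, 187 and 203 CPM in NLS Mut. It fell by 0.45 on the log2 scale (SE 0.06, adjusted p = 6.5e-05, edgeR), and by 0.30 after the correction, since its GC content is 65.3%. LAMB2, a laminin beta chain, fell by 0.33, and by 0.24 after the correction. The remaining decreases, of LTBP3, HSPG2 (perlecan), FBLN2, AGRN and TNC, ranged from -0.19 to -0.33 and were not called after the GC correction, whereas FN1 (fibronectin) and SPARC were then called. Among 46 genes of adhesion and motility the integrin ITGB4 (-0.29), the E-cadherin gene CDH1 (-0.25) and the peptidase ANPEP (-0.23) fell, the median was -0.01, and only CDH1 was called after the correction. No gene of that list was called without Vector replicate 2 or 3 or NLS Mut replicate 2 or 3.

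S100 proteins, small calcium-binding proteins, fell in 3 of 12 cases, against 0.499% of all tested genes called lower. Their median was -0.24 (-0.19 after the correction). S100A4 was at 23.5, 24.1 and 18.7 CPM in Vector and at 15.1, 13.3 and 13.6 CPM in NLS Mut. It fell by 0.66 on the log2 scale (SE 0.12, adjusted p = 0.0044, edgeR), but it was not called without Vector replicate 2 or without NLS Mut replicate 2. S100A14 fell by 0.56 and S100A6 by 0.36, and all 3 were called after the GC correction. Without Vector replicate 2 or NLS Mut replicate 2, 0 of the 12 were called.

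Immediate-early genes showed 3 decreases among 30, against 0.499% of all tested genes called lower. The median was -0.16, or -0.10 after the GC correction, under which 3 fell as well. The number was 1 without Vector replicate 2 or NLS Mut replicate 2 and 10 without Vector replicate 1. The nuclear receptor gene NR4A1 fell from 8.73, 9.59 and 7.96 CPM to 5.30, 3.06 and 4.82 CPM, a log2 fold change of -1.01 (SE 0.20, adjusted p = 0.0084, edgeR). It was not called without Vector replicate 2 or NLS Mut replicate 2. KLF4, a Krüppel-like factor of epithelia, was at 133, 140 and 137 CPM in Vector and at 100.2, 102 and 101 CPM in NLS Mut, and fell by 0.44. The phosphatase gene DUSP5 fell by 0.32, and FOS (-0.18), JUN (-0.15) and EGR1 (-0.28) were not called. Of the epithelial markers, the mucin MUC1 fell by 0.36 and CDH1 is given above, and all 10 had negative values, with a median of -0.21. After the GC correction 2 were called and the median was -0.15, and without Vector replicate 1 as well 0 were called. Without the correction, 7 fell without Vector replicate 1 and 0 without NLS Mut replicate 1 or 3. Complement C3 was at 608, 580 and 580 CPM in Vector and at 502, 459 and 454 CPM in NLS Mut, and was called after the correction as well.

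**Figure D4:**
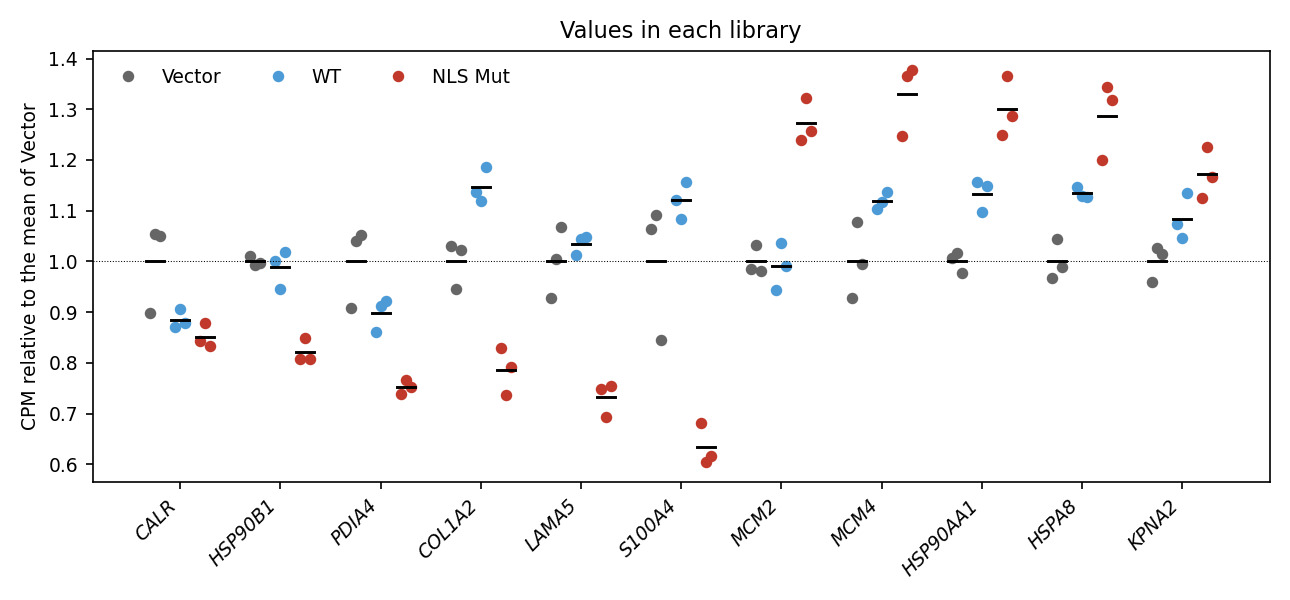
CPM of each library relative to the mean of Vector for 11 called genes, 1 point per library (grey, Vector; blue, WT; red, NLS Mut) and a black bar at each group's mean. For CALR, HSP90B1, PDIA4, COL1A2, LAMA5 and S100A4 the 3 NLS Mut libraries lie below all Vector libraries, and for MCM2, MCM4, HSP90AA1, HSPA8 and KPNA2 they lie above.

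Other lists held few calls or none. EGFR, the receptor whose mutated form drives H1975 growth, was at 345, 337 and 316 CPM in Vector and at 365, 357 and 369 CPM in NLS Mut, a log2 fold change of 0.13 (SE 0.06, adjusted p = 0.36, edgeR), and 0 of 10 members of its family were called in either fit. ID2, the E-box repressor that the study linked to GRP78, was at 18.3, 18.8 and 19.1 CPM in Vector and at 17.6, 17.6 and 18.8 CPM in NLS Mut, and 0 of 21 ID proteins and E-box factors were called in either fit. Neither gene was called, although the EGFR libraries of the groups did not overlap, and a missing call does not show equality at 3 libraries per group. Sterol synthesis had 0 calls among 26 genes in either fit. Fatty acid synthesis had 0 among 19 and the mitochondrial genome 0 among 13, and after the GC correction FASN (0.22) and MT-CO1 (0.16) rose and MT-CO3 (-0.16) fell. In the interferon list OAS3, an antiviral sensor of double-stranded RNA, rose by 0.21 and was the only call among 45, while after the GC correction OAS2 (0.18) and OAS3 rose and DDX60 (-0.21) fell. In the list of cytokines and NF-kB targets TNFAIP2 fell by 0.23 as the only call among 25, and 0 were called after the correction. In the uncorrected fit, neither OAS3 nor TNFAIP2 was called without Vector replicate 2 or 3 or any 1 of the NLS Mut replicates, and without Vector replicate 1 the interferon list had 10 increases and 3 decreases. In the histone list the variant gene H2AJ fell by 0.45, and it was called after the correction but, in the uncorrected fit, not without Vector replicate 2 or 3 or any 1 of the NLS Mut replicates.

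Among the largest decreases outside the lists, PDLIM2, a PDZ and LIM domain protein, was at 8.31, 5.93 and 5.96 CPM in Vector and at 3.31, 2.90 and 2.84 CPM in NLS Mut, and fell by 1.16 on the log2 scale. SCG2, a secretogranin of dense-core vesicles, fell by 0.80, the tight junction gene TJP3 by 0.72, the calpain CAPN8 by 0.69 and the water and glycerol channel AQP3 by 0.65. AQP3 had little spread, with 32.7, 32.5 and 33.0 CPM in Vector and 21.4, 20.4 and 20.99 CPM in NLS Mut. ENSG00000275964 (-1.57), CCDC144NL (-0.73), the solute carrier gene SLC22A31 (-0.72), KRT16 (-0.65) and ANXA8 (-0.65) also fell. KRT16 and ANXA8 have near-identical copies in the genome and are uncertain, and KRT16 was not called after the GC correction. In the uncorrected fit, neither was called without Vector replicate 2 or 3 or any 1 of the NLS Mut replicates. SCG2 and ENSG00000275964 were not called without Vector replicate 2 or 3 or NLS Mut replicate 1 or 2. PDLIM2, TJP3 and CAPN8 were not called without NLS Mut replicate 2, nor was CAPN8 without NLS Mut replicate 3. The genes with the smallest p-values included IGFBP6, a binding protein of insulin-like growth factors, which fell by 0.62, from 261, 319 and 330.5 to 196, 196 and 200.3 CPM. The semaphorin SEMA3B fell by 0.50, and by 0.35 after the correction, and the actin-severing protein gene GSN (gelsolin) fell by 0.42.

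Among the remaining increases outside the lists, the transcription factor gene SP4 rose by 0.54, the cytochrome CYP1B1 by 0.39 and TEX15 by 0.40, of which TEX15 was not called after the GC correction. In the uncorrected fit, neither SP4 nor TEX15 was called without Vector replicate 2 or 3 or NLS Mut replicate 2 or 3. TEX15 was also lost without NLS Mut replicate 1 or WT replicate 1 or 3. RN7SL1, the 7SL RNA of the signal recognition particle, was the 1 called gene with overlapping groups. It was at 7.90, 10.1 and 12.6 CPM in Vector and at 32.5, 10.1 and 149 CPM in NLS Mut. Its log2 fold change of 2.62 was 1.04 without NLS Mut replicate 3, where it was no longer called, and its reads cannot be told apart from those of near-identical copies such as RN7SL3.

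Finally, 82 genes of this comparison were tested directly between NLS Mut and WT, in which 94 of all tested genes (0.504%) were called. A difference was called for 24 of the 82. These genes were chosen for their difference between NLS Mut and Vector, and both contrasts use the same NLS Mut libraries, so a deviation of those libraries moves both and the share called is not independent. HSP90B1 was at 2409 CPM on average in WT and its log2 fold change of NLS Mut over WT was -0.27 (adjusted p = 0.00057, edgeR), and that of PDIA4 was -0.26. CALR, at 1834 CPM in WT, HYOU1, at 784, CRELD2 and MANF were not called between both forms. LAMA5, COL1A2, C3 and S100A4 were lower in NLS Mut than in WT, with log2 fold changes of -0.50, -0.55, -0.48 and -0.82. MCM2, at 0.36, and HSP90AA1, at 0.20, were higher. The WT mean lay between the Vector and NLS Mut means in 47 of 55 genes called higher and 74 of 93 called lower. IGFBP6, SEMA3B and KLF4 were also called lower in WT than in Vector, at -0.40, -0.31 and -0.28. Both comparisons share the Vector libraries, so these values are not independent.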

How the data were processed

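RNA-Seq was done on 9 libraries of H1975 cells, of which the 3 Vector and 3 NLS Mut libraries were compared. Per library, the authors deposited the counts of reads on each gene as STAR writes them, without normalization. The submitters' processing notes name STAR 2.7.9a, DESeq2 1.36.0 and GRCh38.p14, and the annotation release is not given in the sources used here. Strand was ignored, as 50.6% to 51.9% of stranded reads were on the forward strand, so overlapping and antisense genes are uncertain. The 4 summary lines of each library (27.6% to 30.7% of reads), which name no gene, were left out. Of 61544 genes, 61399 had a symbol and 58298 a GC content from GENCODE (GRCh38), which also gave gene coordinates. Sampling noise alone did not account for the spread between replicates (chi-square 3.55 to 12.6 per degree of freedom).

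Counts were filtered with filterByExpr, scaled by TMM (factors 0.989 to 1.02) and fitted with edgeR 4.0.16 in R 4.3.3 in 1 quasi-likelihood model of all 9 libraries. Adjusted p-values follow Benjamini and Hochberg over all genes of a comparison, with a threshold of 0.05. Standard errors were derived from the log2 fold change and the F statistic. The median biological coefficient of variation was 11.1%, and an exact permutation test of 3 against 3 cannot go below 0.1. The scripts were tested on simulated data. The GC correction is a loess (span 0.3) of each library's log2 ratio to the mean library, used as an offset. Alternatives were DESeq2 1.42.0, other scalings and filters, a replicate block, GC and length corrections and leaving out each library, and GC correction without each Vector library or without WT was added after seeing the data. Figures used matplotlib 3.10.9.

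The named genes are HSPA5, the 12 largest changes in each direction among calls of at least 1 CPM on average whose groups did not overlap, the 10 smallest p-values in each direction, and called members of 29 hand-written gene lists; members not called are given as values. The comparison, the lists and the rule were chosen with earlier results of these data known, so the lists are no independent evidence of a direction. Some named genes are not reported here.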

Additional observations from a re-analysis of the deposited data

Results flagged for a closer look

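For 24 named genes, the direct test between NLS Mut and WT found a difference (adjusted p below 0.05 over all tested genes, edgeR). These genes were chosen for a difference between NLS Mut and Vector in the same 3 NLS Mut libraries, so a deviation of those libraries favours a call in both contrasts, and the values are no independent evidence. All values that follow are log2 fold changes of NLS Mut over WT.

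Among matrix and adhesion genes, the value was -0.55 for COL1A2, -0.5 for LAMA5, -0.46 for the integrin ITGB4, -0.39 for COL17A1, -0.37 for HSPG2, -0.35 for LAMB2, -0.35 for the peptidase ANPEP, -0.34 for FBLN2, -0.27 for CDH1 and -0.22 for TNC. COL1A2 had an adjusted p of 1.4e-05 (edgeR) and C3, at -0.48, of 5.1e-06. For ER chaperones it was -0.27 for HSP90B1 and -0.26 for PDIA4. It was -0.83 for SCG2, -0.82 for S100A4, -0.74 for CAPN8, -0.63 for TJP3, -0.58 for AQP3 and -0.36 for GSN.

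Higher values in NLS Mut were found for HSP90AA1 (0.2), UHRF1 (0.27), the HSP90 cochaperone FKBP4 (0.33), MCM2 (0.36) and RN7SL1 (3.27). That of RN7SL1 rests on libraries at 32.5, 10.1 and 149 CPM in NLS Mut, against a mean of 6.54 CPM in WT.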

How the results depend on the processing

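The log2 fold change of HSPA5 kept its direction and its call in every alternative, and so did the direction of each of the 82 named genes. The numbers of called genes did not. Against 55 higher and 93 lower genes, DESeq2 gave 226 and 204, of which 53 and 87 were shared, no count filter gave 167 lower, GC and length correction gave 116 higher and the GC correction 104 higher. With the GC correction, 54 and 51 genes were lower without Vector replicates 2 and 3, and 137 were higher with only the Vector and NLS Mut libraries. Leaving out 1 library gave 11 to 473 higher and 22 to 529 lower genes, with the highest numbers without Vector replicate 1 the lowest lower count without NLS Mut replicate 2, and the lowest higher count without that library or Vector replicate 3. The replicate block gave 91 higher and 139 lower genes, and 136 higher together with the GC correction. Deviations of libraries with the same number correlated at 0.016, 0.014 and 0.004, so the numbers were not taken as pairs. Of the 81 named genes beside HSPA5, 18 were not called with the GC correction, and 43, 45, 42, 55 and 43 were not called without Vector replicate 2 or 3 or NLS Mut replicate 1, 2 or 3. The cause of these shifts was not tested. With 3 libraries per group, the smallest decrease called was -0.19 and the smallest increase 0.21 on the log2 scale, and a gene without a call is not shown to be equal in both groups.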

Other observations

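Some called genes outside the lists and the naming rule were looked at after their values were seen. Of the genes called lower in all 9 fits that left out 1 library and with the GC correction, 3 fell outside that rule. These were the chemokine gene CX3CL1, which fell by 0.46 from 72.9 to 52.9 CPM, PLAAT4, a phospholipase of the retinoid response, which fell by 0.58 from 35.7 to 23.8 CPM, and the kinase gene CDC42BPG, which fell by 0.46 from 58.8 to 42.8 CPM. AGR2, a disulfide isomerase of the ER in mucus-secreting cells that is in none of the lists, fell by 0.59, from 14.9 to 9.96 CPM, and was called after the GC correction as well. In WT, AGR2 was at 8.81 CPM on average, and its log2 fold change of WT over Vector was -0.76 (adjusted p = 0.0076, edgeR). The epithelial transcription factor gene ELF3 fell by 0.36, the desmosomal gene PPL (periplakin) by 0.37 and the nectin NECTIN4 by 0.40, all also called after the correction. AGR2, ELF3 and NECTIN4 were not called without Vector replicate 2 or 3 or NLS Mut replicate 2 or 3, and PPL was not called without NLS Mut replicate 1 or 2.

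Among the increases, picked here after their values were seen, LMNB1, which encodes lamin B1, rose by 0.28 from 108 to 132 CPM, TMPO, which encodes the lamin-binding LAP2 proteins, by 0.33 from 102 to 128 CPM, and the nuclear pore gene NUP153 by 0.25 from 146 to 173 CPM. The condensin genes SMC4 (0.31) and NCAPD2 (0.24) and the DNA repair gene BRCA1 (0.33) rose as well, and all 6 were called after the GC correction. None of the 6 was called without Vector replicate 2 or 3 or NLS Mut replicate 2 or 3. LINC02897, a long noncoding RNA, had the lowest log2 fold change of the called genes, -3.21, at 0.94 CPM in Vector and 0.10 CPM in NLS Mut, and was called in both fits, but not without Vector replicate 2 or 3 or any 1 of the NLS Mut replicates.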
